A study of Medicago truncatula with 9 samples.

Results

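Abscisic acid is the hormone that keeps maturing seeds filling, drying and dormant. Plants make it from carotenoids: zeaxanthin epoxidase turns zeaxanthin into violaxanthin, and 9-cis-epoxycarotenoid dioxygenase cuts a derived epoxycarotenoid into xanthoxin, the committed step. The hormone is sensed by PYR/PYL receptors, which when bound to it block clade A protein phosphatases 2C, so that SnRK2 kinases can act on bZIP factors such as ABI5. AFP proteins of the ninja family bind ABI5 and dampen the hormone's responses, a role known from Arabidopsis. Described here are 4 loci of this pathway, of the 36695 loci in the deposited table, namely the 9-cis-epoxycarotenoid dioxygenase Medtr2g070460, the zeaxanthin epoxidase Medtr5g017350, the abscisic acid receptor Medtr5g083270 and the ninja-family protein AFP1 Medtr3g025970. They were singled out by identifier, from loci of abscisic acid metabolism and signalling with differences from the wild type already seen in these same libraries. Their levels in the mutants against the wild type are therefore given as a description with no test.

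The seeds were mature seeds of the barrel medic, Medicago truncatula, of 3 genotypes with 3 libraries each. The hsfa9-2 line (NF13157) and the hsfa9-1 line (NF10440) each carry a Tnt1 retrotransposon insertion in the background of R108, the wild type of the study, and are named for HSFA9, a heat stress transcription factor gene of seeds. No locus is described as HSFA9 in the table, so its level was not used to check the labels. Each library was made from 50 seeds gathered from different plants, from pods dried at 43% relative humidity. No plant numbers are given, so the spread covers these samples of seeds only. All plants shared a culture room (20/19 °C, light for 16 h a day), and seeds of all genotypes were kept at 20 °C until extraction. Each mutant stands for 1 insertion line, and other insertions in these lines were not analysed here. Levels are FPKM, fragments mapped per unit of transcript length, scaled to the fragments mapped in the library, summed over the transcript models of a locus. Being scaled by length, FPKM can be set side by side between loci of a library. How evenly reads of these R108-background seeds map to each locus was not checked.

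The 9 libraries listed between 922800.58 and 981284.54 FPKM in all, and their relative depth, read from the lowest values, ran from 0.991 to 1.01. Numbers of mapped fragments per library were not available. Markers of seed reserves (21 loci of vicilins, legumins and oil body proteins) held 2.67% to 2.98% of all FPKM in hsfa9-2, 2.18% to 2.53% in hsfa9-1 and 2.30% to 2.37% in R108. Other marker sums moved with genotype. The 117 photosynthesis loci summed to 1983 to 2341 FPKM in hsfa9-2, 2322 to 3099 in hsfa9-1 and 3608 to 3905 in R108, and the 24 flavonoid loci to 568 to 724, 547 to 557 and 129 to 154 FPKM in the same order of genotypes. The 32 nodule-type loci summed to 2290 to 3803 FPKM in hsfa9-2, 2072 to 2360 in hsfa9-1 and 674 to 879 in R108, with 9 of them at 0 in each genotype. Their part in the results below was not tested, and in whole seeds fewer cells of a type and less RNA per cell cannot be told apart. The library hsfa9-2 replicate 1 stood apart: in 19 loci that R108 expressed at 20 FPKM or more and hsfa9-1 at no more than 1/50 of that, it kept a median of 5.06% of the R108 level, against 0.596% and 0.673% in replicates 2 and 3.

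In both mutants the order of the 4 loci by level differed from that in R108. The receptor and the dioxygenase were the most abundant of the 4 in every mutant library, and AFP1 and the epoxidase the least. In R108 libraries AFP1 led, followed by the receptor, the epoxidase and the dioxygenase. The order was receptor, dioxygenase, AFP1, epoxidase in all 3 hsfa9-2 and all 3 hsfa9-1 libraries. Receptor FPKM exceeded AFP1 FPKM 12.3-fold, 20.4-fold and 15.5-fold in hsfa9-2 replicates 1, 2 and 3 and 16.8-fold, 11.8-fold and 23.4-fold in those of hsfa9-1, whereas AFP1 exceeded the receptor 8.17-fold, 10.3-fold and 9.47-fold in those of R108. Dioxygenase FPKM exceeded epoxidase FPKM between 10.8-fold and 13.7-fold in hsfa9-2 and between 7.65-fold and 9.61-fold in hsfa9-1, and the epoxidase exceeded the dioxygenase between 1.73-fold and 3.33-fold in R108.

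**Figure D1:**
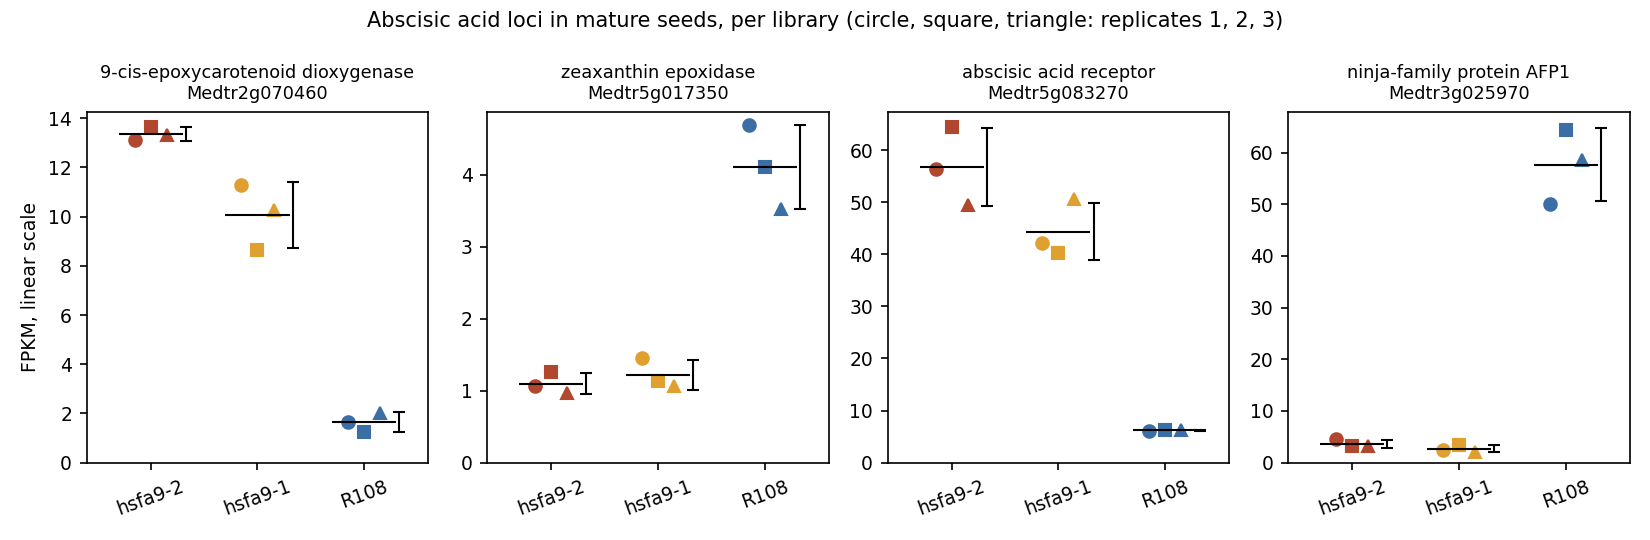
FPKM (linear axis from 0) of the 4 loci in each library of hsfa9-2, hsfa9-1 and R108; the 3 marker shapes are replicates, the line is the mean and the bar beside it the SD over 3 libraries. The mutant points of the dioxygenase and the receptor all lie above the R108 points, and those of the epoxidase and AFP1 all below.

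The 9-cis-epoxycarotenoid dioxygenase Medtr2g070460, the enzyme of the committed step, had 13.1, 13.65 and 13.32 FPKM in hsfa9-2, 11.28, 8.65 and 10.28 FPKM in hsfa9-1, and 1.66, 1.23 and 2.03 FPKM in R108. Every mutant library was above every R108 library. The ratio of mean FPKM to that of R108 was 8.14 for hsfa9-2 and 6.14 for hsfa9-1, and the difference of mean log2(FPKM + 1), the log2 change used from here on, was 2.45 in hsfa9-2 and 2.07 in hsfa9-1 (SE 0.13 each), against a mean of 1.64 ± 0.400 FPKM in R108 (SD, n = 3). Ranked by FPKM among the loci tested, it stood at percentiles 54.7 to 56.0 in hsfa9-2 libraries, 45.7 to 51.7 in hsfa9-1 and 10.1 to 17.7 in R108. Of the 4 loci it had the smallest spread within hsfa9-2, with a coefficient of variation of 2.07% against 13.2% in hsfa9-1 and 24.4% in R108, where levels were lowest. The locus has 1 transcript model.

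Zeaxanthin epoxidase Medtr5g017350, which acts upstream of the dioxygenase, was the scarcest of the 4 in the mutants. Its FPKM were 1.06, 1.26 and 0.97 in hsfa9-2, 1.45, 1.13 and 1.07 in hsfa9-1, and 4.69, 4.10 and 3.52 in R108. No mutant library reached the lowest R108 library. The R108 mean was 3.74 times the hsfa9-2 mean and 3.37 times the hsfa9-1 mean, and the log2 change was −1.28 in hsfa9-2 and −1.20 in hsfa9-1 (SE 0.13 each), against 4.10 ± 0.585 FPKM in R108. By FPKM it stood at percentiles 7.90 to 11.1 in hsfa9-2, 8.10 to 12.6 in hsfa9-1 and 27.9 to 33.3 in R108.

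This is the only locus of the 4 with more than 1 transcript model, and its 4 models were unevenly filled. Model 2 (Medtr5g017350.2) had 0.59, 0.23 and 0.35 FPKM in hsfa9-2, 1.04, 0.08 and 0.70 FPKM in hsfa9-1, and 2.83, 3.55 and 3.52 FPKM in R108. It was above 0 in all 9 libraries and held 60.3% to 100% of the locus in R108, against 18.3% to 55.7% in hsfa9-2 and 7.08% to 71.7% in hsfa9-1. Model 1 (Medtr5g017350.1) had 0.47, 1.03 and 0 FPKM in hsfa9-2 and 0.41, 0.55 and 0 FPKM in hsfa9-1, and was listed at 0 in all R108 libraries. Models 3 and 4 were listed at 0 in 5 and 7 of the 9 libraries. With model 2 alone, the most abundant by its mean over all 9 libraries though not in hsfa9-2, in place of the sum, the log2 change was −1.63 in hsfa9-2 and −1.46 in hsfa9-1. Shares of models at these levels rest on few fragments and on how the authors' quantification divided shared reads, so no difference in model use was drawn from them.

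**Figure D2:**
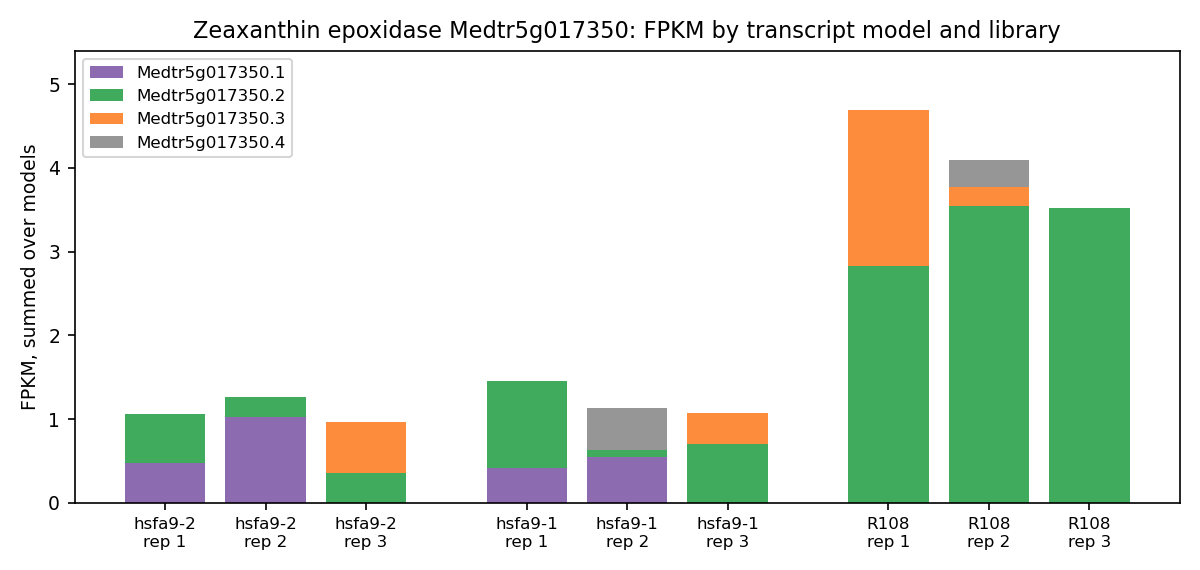
FPKM of the 4 transcript models of zeaxanthin epoxidase Medtr5g017350, stacked to the locus sum, in the libraries of hsfa9-2, hsfa9-1 and R108 (replicates 1 to 3). The sums lie between 0.97 and 1.45 FPKM in mutant libraries and between 3.52 and 4.69 FPKM in R108, where model 2 makes up most of each bar.

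The abscisic acid receptor Medtr5g083270, which its KEGG term places in the PYR/PYL family, had 56.4, 64.49 and 49.47 FPKM in hsfa9-2, 42.15, 40.3 and 50.64 FPKM in hsfa9-1, and 6.14, 6.22 and 6.19 FPKM in R108. All mutant libraries were above all R108 libraries, and the R108 libraries had a coefficient of variation of 0.654%. Mean FPKM was 9.18 times that of R108 in hsfa9-2 and 7.17 times in hsfa9-1, with log2 changes of 3.0 and 2.65 (SE 0.11 each), against 6.18 ± 0.0404 FPKM in R108. The receptor stood at percentiles 81.5 to 85.1 in hsfa9-2, 76.9 to 81.0 in hsfa9-1 and 38.3 to 38.5 in R108.

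AFP1 (Medtr3g025970) had 4.57, 3.16 and 3.19 FPKM in hsfa9-2, 2.51, 3.41 and 2.16 FPKM in hsfa9-1, and 50.15, 64.32 and 58.59 FPKM in R108. The highest mutant library was hsfa9-2 replicate 1, the library that stood apart, and it was still far below the lowest R108 library. The R108 mean was 15.8 times the hsfa9-2 mean and 21.4 times the hsfa9-1 mean, and the log2 change was −3.67 in hsfa9-2 and −4.00 in hsfa9-1 (SE 0.16 each), against 57.7 ± 7.13 FPKM in R108. Of the tested loci, 36 had a more negative log2 change in hsfa9-2 and 31 in hsfa9-1. For comparison, 93 and 134 loci had a more positive change than the receptor, 187 and 285 a more positive one than the dioxygenase, and 1025 and 1054 a more negative one than the epoxidase, in hsfa9-2 and hsfa9-1.

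All 4 loci passed the filter of at least 1 FPKM in at least 3 libraries, which kept 17508 loci, and each reached 1 FPKM in libraries of every genotype. All 4 also had no overlap between either mutant and R108. Across the tested loci 66.4% did not overlap in hsfa9-2 (27.8% higher and 38.6% lower) and 67.1% in hsfa9-1 (31% higher and 36.1% lower), and nothing is read from the count of the 4 since these contrasts chose them. Both contrasts use the same R108 libraries, so they are not independent of each other. The median absolute log2 change over all tested loci was 0.42 in hsfa9-2 and 0.39 in hsfa9-1.

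The contrast between the insertion lines was not the one the 4 loci were chosen on, although it uses the same mutant libraries. A choice of loci known to differ from R108 can still bear on it, so its p-values are not free of that choice. None of the 4 differed between hsfa9-2 and hsfa9-1 at an adjusted p under 0.05 (limma, Benjamini-Hochberg over all tested loci), where 1.12% of tested loci did. Dioxygenase FPKM averaged 13.4 ± 0.277 in hsfa9-2 and 10.1 ± 1.33 in hsfa9-1 (SD, n = 3 each), without overlap of the libraries, as at 5.57% of tested loci in this direction. The log2 change of hsfa9-2 against hsfa9-1 was 0.38 (95% interval 0.10 to 0.67, limma adjusted p = 0.226). For the receptor the means were 56.8 ± 7.52 and 44.4 ± 5.51 FPKM, with a log2 change of 0.35 (0.11 to 0.59, limma adjusted p = 0.192) and overlapping libraries. AFP1 averaged 3.64 ± 0.806 FPKM in hsfa9-2 and 2.69 ± 0.645 in hsfa9-1, a log2 change of 0.33 (−0.02 to 0.68, limma adjusted p = 0.358). The epoxidase averaged 1.10 ± 0.148 and 1.22 ± 0.204 FPKM, a log2 change of −0.08 (−0.37 to 0.21, limma adjusted p = 0.818). The intervals of the dioxygenase and the receptor lie above 0 before adjustment and their adjusted p-values miss the threshold. A missed threshold with 3 libraries a line does not show that the lines have the same levels.

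Around these loci, the loci listed for the pathway moved in both directions. Of 83 tested loci in 8 lists made from words in the descriptions (131 loci in all, the 4 left out), 28 rose and 32 fell in hsfa9-2 (72.3%, against 62.3% of all tested loci), and 26 rose and 25 fell in hsfa9-1 (61.4%, against 59.5%). Their median log2 change was 0.06 in hsfa9-2 and 0.07 in hsfa9-1, beside −0.10 and −0.04 over all tested loci. Of the 83 loci, 44 are protein phosphatases 2C of every clade, so the counts are those of lists wider than the pathway. The library medians differed by −0.12 on the log2 scale (hsfa9-2 minus R108), and centring each library on its median gave 34 rises and 23 falls in hsfa9-2. Over all tested loci centring likewise turned 4511 rises and 6391 falls in hsfa9-2 into 5634 and 5070. A second set, the loci of 12 KEGG terms of the pathway, was added after the values were seen. Of its 65 tested loci (132 in all), 23 rose and 23 fell in hsfa9-2 (70.8%), with 29 rises and 19 falls after centring, and 25 rose and 23 fell in hsfa9-1 (73.8%). The sets share 17 tested loci. None of either set was called between hsfa9-2 and hsfa9-1 by limma. At an unadjusted limma p under 0.05 were 8 of the 83 and 9 of the 65 loci, beside 2592 of all 17508 tested loci. Without hsfa9-2 replicate 1 the receptor PYL9-like Medtr8g027805 was called (log2 change 0.54, limma adjusted p = 0.0457, against 0.40 and 0.221 with all libraries). So was the oxidoreductase Medtr1g090667 (−0.62, limma adjusted p = 0.0280, against −0.16 and 0.845 with all libraries). Adjusted p-values of the following loci are from limma, over all tested loci. Counts by step below stand beside 25.8% of all tested loci called higher and 36.5% lower in hsfa9-2. In hsfa9-1 these shares were 27.6% and 31.9%, and no step was tested against them.

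**Figure D3:**
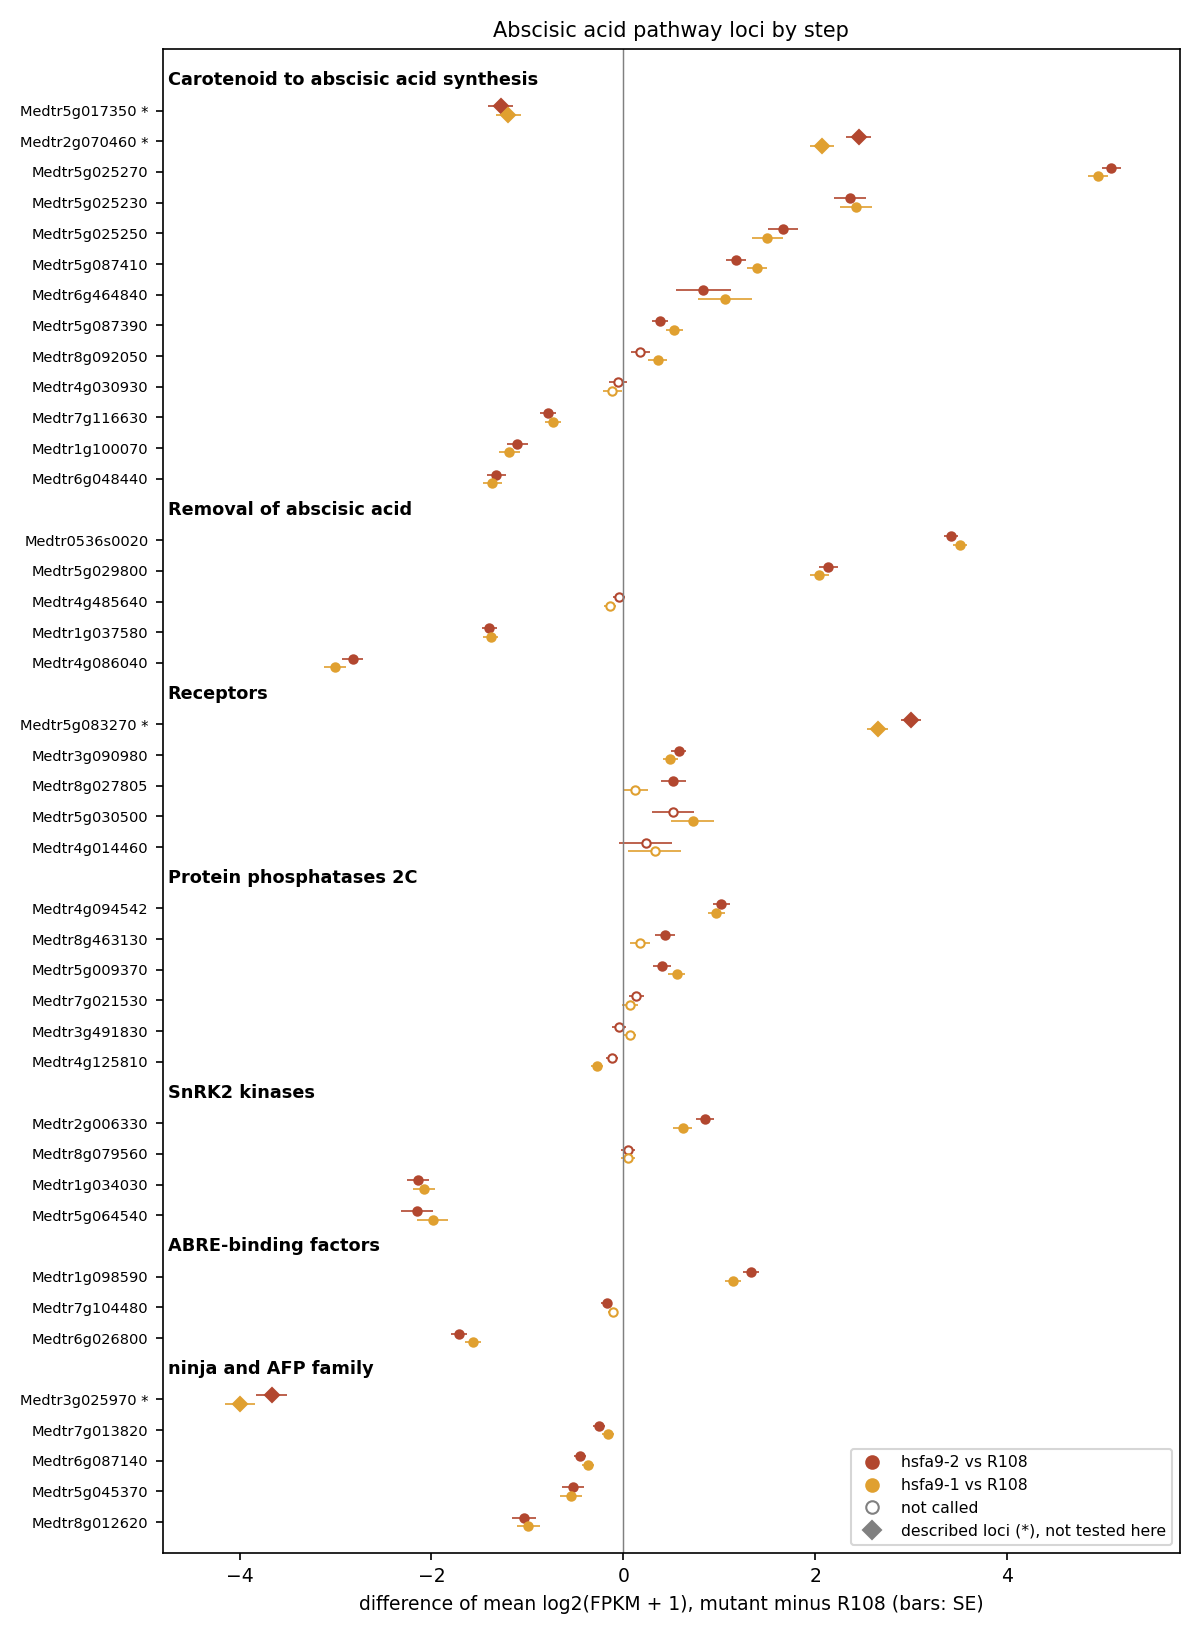
Log2 changes of pathway loci, as differences of mean log2(FPKM + 1), in hsfa9-2 and hsfa9-1 against R108, by step; bars are SE, open circles are loci not called, and diamonds with an asterisk are the 4 loci described, whose symbols carry no test. Both ABA 8'-hydroxylases lie left of 0 and the carotenoid cleavage dioxygenase 4a-6 loci (Medtr5g025230, Medtr5g025250 and Medtr5g025270) right of it. Of the 6 phosphatases plotted, picked for abundance, Medtr4g125810 lies slightly left of 0 (called lower in hsfa9-1) and the others near 0 or right of it. Among all 44 tested phosphatases, 14 rose and 15 fell in hsfa9-2, and 12 rose and 11 fell in hsfa9-1.

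Values are mean FPKM ± SD over 3 libraries, and log2 changes are given for hsfa9-2 and then hsfa9-1, against R108. Upstream of the epoxidase, both beta-carotene hydroxylases, which make zeaxanthin, fell. Medtr1g100070 had 251 ± 38.3 FPKM in hsfa9-2, 235 ± 5.65 in hsfa9-1 and 539 ± 53.2 in R108 (log2 changes −1.10 and −1.19, adjusted p = 8.14e-06 and 5.12e-06). Medtr6g048440 had 45.9 ± 6.28, 44.3 ± 3.11 and 116 ± 6.26 FPKM in the same genotypes (−1.32 and −1.37). Violaxanthin de-epoxidase Medtr7g116630, which runs the epoxidase step backwards, fell as well, to 11.6 ± 1.06 FPKM in hsfa9-2 and 12.1 ± 0.2 in hsfa9-1, against 20.7 ± 1.41 in R108 (−0.79 and −0.73). The locus described as its like, Medtr8g092050, had 8.53 ± 1.24, 9.75 ± 0.278 and 7.38 ± 0.125 FPKM and rose in hsfa9-1 (0.36, adjusted p = 0.00977), with 0.18 in hsfa9-2 (adjusted p = 0.143), where it was called after centring (0.30, adjusted p = 0.0186) and without hsfa9-2 replicate 2 (0.26, adjusted p = 0.0482). The list of synthesis words had 6 tested loci of 14 beside the pair described above, and no other locus described as a zeaxanthin epoxidase passed the filter. The KEGG term for the epoxidase mostly holds FAD-dependent oxidoreductases of other descriptions. Of its tested loci, 3 of 8 rose and 3 fell in hsfa9-2 (75%, against 62.3% of all tested loci). In hsfa9-1, 3 rose and 4 fell (87.5%, against 59.5%). Among these, Medtr1g090667 had 0.993 ± 1.21 FPKM in hsfa9-2, 0.993 ± 0.11 in hsfa9-1 and 50.5 ± 3.44 in R108. Its libraries had 2.39, 0.25 and 0.34 FPKM in hsfa9-2 and 1.12, 0.93 and 0.93 in hsfa9-1. The hsfa9-2 mean thus rests mostly on replicate 1, the library that stood apart. The urate hydroxylase-like Medtr1g112740 had 719 ± 36.5 FPKM in hsfa9-2, 824 ± 49.2 in hsfa9-1 and 527 ± 24.3 in R108 and rose (0.45 and 0.64), and Medtr1g112780 had 10.04 ± 1.37 FPKM in hsfa9-2, 11.1 ± 0.976 in hsfa9-1 and 22.5 ± 0.801 in R108 and fell (−1.10 and −0.96). In hsfa9-2, 1 of the 6 loci from the words rose, 3 fell and 2 were not called, and in hsfa9-1, 2 rose, 3 fell and 1 was not called.

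Near the dioxygenase, the KEGG term for it also holds 3 loci described as carotenoid cleavage dioxygenase 4a-6, a related enzyme type that is not the committed step. Of these, Medtr5g025270 had 56.2 ± 5.63 FPKM in hsfa9-2, 51.0 ± 4.27 in hsfa9-1 and 0.683 ± 0.129 in R108. The others, Medtr5g025230 and Medtr5g025250, also rose, with log2 changes of 2.36 and 2.42 for the one and 1.67 and 1.5 for the other. Medtr5g025230 had 4.54 ± 1.26, 4.71 ± 0.430 and 0.0633 ± 0.0850 FPKM in hsfa9-2, hsfa9-1 and R108. Medtr5g025250 had 2.26 ± 0.0872, 1.95 ± 0.636 and 0.0267 ± 0.0231 FPKM. With R108 near 0, adding 1 FPKM shrinks these log2 changes. The ratios of means, 71.7 and 74.3 for the one and 84.75 and 73.25 for the other, rest on that low level. No other locus carries the description 9-cis-epoxycarotenoid dioxygenase, so Medtr2g070460 was the only one seen under that name.

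Late in synthesis, an aldehyde oxidase that needs a sulfurated molybdenum cofactor makes abscisic acid from its aldehyde. Both tested loci with this KEGG term, described as indole-3-acetaldehyde oxidases, rose. Medtr5g087410 had 7.32 ± 0.832 FPKM in hsfa9-2, 8.67 ± 0.769 in hsfa9-1 and 2.68 ± 0.0608 in R108 (log2 changes 1.17 and 1.39), and Medtr5g087390 had 24.6 ± 1.33, 27.5 ± 2.85 and 18.6 ± 1.02 FPKM (0.38 and 0.53). The molybdenum cofactor sulfurase Medtr6g464840 had 1.75, 1.89 and 2.73 FPKM in hsfa9-2, 2.68, 2.71 and 2.47 FPKM in hsfa9-1, and 0, 1.17 and 1.41 FPKM in R108 and rose (0.83 and 1.06). Without R108 replicate 1, listed at 0, its log2 changes were 0.44 and 0.66, and leaving out other libraries gave up to 1.07 and 1.3. Its call in hsfa9-2 (adjusted p = 0.0261) was lost with a pseudocount of 0.1 (0.0684), without the filter (0.0594) and without hsfa9-2 replicate 3 (0.0864). The more abundant sulfurase Medtr4g030930 had 16.3 ± 1.76, 15.6 ± 0.63 and 17.0 ± 1.71 FPKM and was not called (−0.06 and −0.11, with a positive value in hsfa9-2 after centring). The term for xanthoxin dehydrogenase, the step between, holds mostly loci described only as short-chain dehydrogenases. Of its 8 tested loci, 2 rose and 3 fell in hsfa9-2 (62.5%, against 62.3% of all tested loci). In hsfa9-1, 2 rose and 4 fell (75%, against 59.5%). Medtr6g023910 fell, with 60.8 ± 8.58 FPKM in hsfa9-2, 41.5 ± 6.69 in hsfa9-1 and 84.9 ± 10.6 in R108 (−0.48 and −1.02), a call in hsfa9-2 (adjusted p = 0.0118) that was lost after centring (0.0524) and without R108 replicate 3 (0.0517). Medtr6g023950 rose, with 12.1 ± 2.63 FPKM in hsfa9-2, 9.43 ± 2.49 in hsfa9-1 and 2.50 ± 0.510 in R108 (1.89 and 1.56), and Medtr7g110140 was not called (0.20 and −0.15), but was called higher in hsfa9-2 after centring (0.32, adjusted p = 0.0268).

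Removal of the hormone was covered by no locus of the word lists, since the descriptions abbreviate its name. By KEGG term, both tested ABA 8'-hydroxylases, cytochromes P450 that start its breakdown, fell. Medtr1g037580 had 61.17, 50.93 and 56.33 FPKM in hsfa9-2, 54.43, 58.17 and 57.19 FPKM in hsfa9-1, and 144.58, 144.09 and 159.34 FPKM in R108. The mutant libraries were all below the R108 libraries (log2 changes −1.40 and −1.38, adjusted p = 1.28e-07 and 1.46e-07). Medtr4g086040 had 2.53, 2.32 and 1.99 FPKM in hsfa9-2, 1.63, 1.96 and 2.05 FPKM in hsfa9-1, and 20.07, 24.7 and 21.93 FPKM in R108 (−2.82 and −3.01). Summed over the 9 loci of the term, FPKM was 59.0 ± 4.66 in hsfa9-2, 59.0 ± 2.07 in hsfa9-1 and 174 ± 9.35 in R108. Under the glucosyltransferase term, which also covers other glucosyltransferases, 5 of 9 tested loci rose and 2 fell in hsfa9-2 (77.8%, against 62.3% of all tested loci). In hsfa9-1, 5 rose and 1 fell (66.7%, against 59.5%). Of these, Medtr0536s0020 had 94.2 ± 4.26, 100.5 ± 1.54 and 7.93 ± 0.708 FPKM in hsfa9-2, hsfa9-1 and R108 (3.42 and 3.51). Medtr5g029800 rose as well, with 138 ± 12.1 FPKM in hsfa9-2, 129.8 ± 18.0 in hsfa9-1 and 30.5 ± 1.18 in R108 (2.14 and 2.04), and Medtr4g485640 was not called (−0.04 and −0.14), with a positive value in hsfa9-2 after centring.

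Of the 5 tested loci described as receptors, Medtr5g083270 had the largest log2 change in both mutants, a rank that its choice for this contrast favours. The other 4 tested of 7 receptors had log2 changes from 0.23 to 0.58 in hsfa9-2 and from 0.12 to 0.73 in hsfa9-1. In each mutant 2 of them rose, while by KEGG term 3 of 5 tested loci rose in each and none fell. These are 50% and 60% called in each mutant, against 62.3% and 59.5% of all tested loci in hsfa9-2 and hsfa9-1. PYL9-like Medtr3g090980 had 73.2 ± 6.07 FPKM in hsfa9-2, 68.9 ± 5.26 in hsfa9-1 and 48.7 ± 2.63 in R108 (0.58 and 0.49, adjusted p = 0.000138 and 0.000443). PYL9-like Medtr8g027805 had 28.4 ± 4.88, 21.2 ± 0.909 and 19.5 ± 2.74 FPKM, and rose in hsfa9-2 (0.52, adjusted p = 0.00582), with 0.12 in hsfa9-1 (adjusted p = 0.448). PYR1-like Medtr5g030500 had 50.5 ± 17.0, 56.8 ± 11.3 and 33.6 ± 2.64 FPKM and rose in hsfa9-1 (0.73, adjusted p = 0.0171), a call lost without R108 replicate 3 (0.0529) or hsfa9-1 replicate 3 (0.0686). In hsfa9-2 its adjusted p was 0.0666, and 0.0210 after centring, 0.0386 after leaving out the 100 most abundant loci, and 0.00115 without hsfa9-2 replicate 3. Medtr4g014460, at 1.67 ± 0.958, 1.74 ± 0.262 and 1.24 ± 0.641 FPKM, was not called.

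Medtr5g083270 held 26.1% to 28.1% of the summed receptor FPKM in hsfa9-2, 21.7% to 23.8% in hsfa9-1 and 5.56% to 5.73% in R108. The sum over the 8 receptors was 211 ± 20.1 FPKM in hsfa9-2, 193 ± 19.8 in hsfa9-1 and 109 ± 2.13 in R108. Without Medtr5g083270 it was 154 ± 12.8, 149 ± 14.9 and 103 ± 2.10 FPKM, so that the mutant sums stayed above those of R108 in every library.

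In the ninja and AFP family the 4 other loci were also lower in the mutants, by less than Medtr3g025970, whose choice favours that rank. All 4 were called in both, except that Medtr7g013820 was not called after centring nor, in hsfa9-1, in further settings given with its values. Of all tested loci, 36.5% were called lower in hsfa9-2 and 31.9% in hsfa9-1. Medtr8g012620, another locus described as AFP1, had 54.11, 47.86 and 46.69 FPKM in hsfa9-2, 49.93, 51.28 and 51.91 FPKM in hsfa9-1, and 98.76, 84.95 and 127.56 FPKM in R108, and fell (−1.03 and −0.99, adjusted p = 4.02e-05 and 5.99e-05). The third, Medtr5g045370, fell to 2.94 ± 0.195 FPKM in hsfa9-2 and 2.90 ± 0.389 in hsfa9-1, against 4.68 ± 0.487 in R108 (−0.52 and −0.54). The mc410 locus Medtr6g087140 had 44.2 ± 1.73, 46.9 ± 2.01 and 60.8 ± 1.53 FPKM and fell (−0.45 and −0.37). The ABI five-binding locus Medtr7g013820 had 107 ± 5.28, 114 ± 3.61 and 128 ± 6.95 FPKM and was called (−0.25 and −0.16, adjusted p = 0.00527 and 0.0452), but not after centring (adjusted p = 0.0902 and 0.212), and in hsfa9-1 its call was also lost under the replicate block (0.0751) and in most other settings. Medtr3g025970 held 1.51% to 2.15% of the family's FPKM in hsfa9-2, 1.02% to 1.53% in hsfa9-1 and 14.8% to 19.0% in R108. Without it the family summed to 204 ± 5.56 FPKM in hsfa9-2, 215 ± 4.10 in hsfa9-1 and 297 ± 29.2 in R108.

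**Figure D4:**
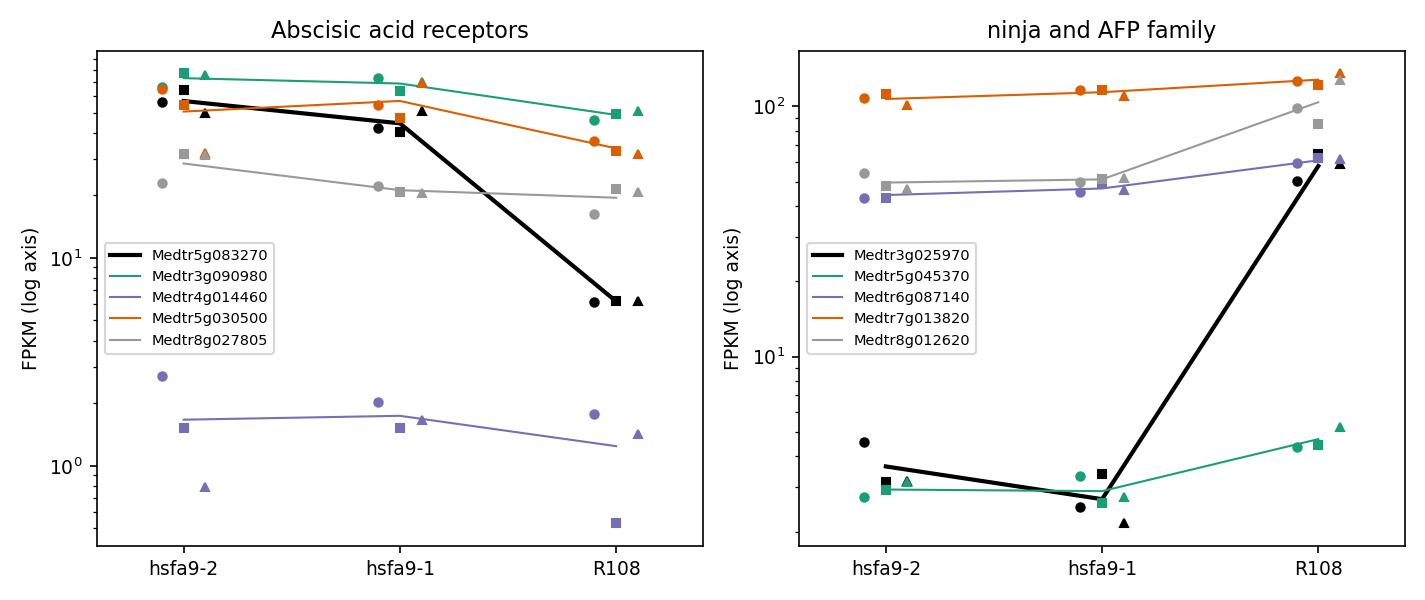
FPKM on a log axis of the tested receptors (left) and of the ninja and AFP family (right) in hsfa9-2, hsfa9-1 and R108; marker shapes are replicates, lines join genotype means, and the black lines are Medtr5g083270 and Medtr3g025970. The black receptor line lies between 40.3 and 64.49 FPKM in the mutants and near 6.18 FPKM in R108, and the black AFP1 line between 2.16 and 4.57 FPKM in the mutants and between 50.15 and 64.32 FPKM in R108.

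Between receptor and transcription factor, phosphatases 2C, of which clade A members inhibit SnRK2 kinases, were divided. Of 44 tested loci (60 in all, of every clade), 14 rose, 15 fell and 15 were not called in hsfa9-2. In hsfa9-1, 12 rose, 11 fell and 21 were not called. Called were 65.9% and 52.3%, against 62.3% and 59.5% of all tested loci. The most abundant by its mean over all 9 libraries, Medtr4g094542, rose to 605 ± 69.2 FPKM in hsfa9-2 and 580.5 ± 8.63 in hsfa9-1, against 296 ± 22.1 in R108. The ABI2-like Medtr4g125810 had 75.0 ± 3.26, 66.9 ± 3.87 and 81.3 ± 0.95 FPKM, and fell in hsfa9-1 (−0.28, adjusted p = 0.00281), with −0.12 in hsfa9-2 (adjusted p = 0.125), a value of the other sign after centring. By the KEGG term of the pathway's phosphatases, 2 of 7 tested loci rose and 1 fell in each mutant. Of the others named, Medtr5g009370 had 145 ± 4.13 FPKM in hsfa9-2, 161 ± 7.55 in hsfa9-1 and 109.7 ± 14.9 in R108 and rose (0.40 and 0.56). Medtr8g463130 had 373 ± 52.1 FPKM in hsfa9-2, 310.4 ± 12.9 in hsfa9-1 and 275 ± 23.2 in R108 and rose in hsfa9-2 (0.43, adjusted p = 0.00402), with 0.18 in hsfa9-1 (adjusted p = 0.166). Medtr3g491830 (−0.05 and 0.07) and Medtr7g021530 (0.14 and 0.07) were not called, except the second in hsfa9-2 after centring (0.26, adjusted p = 0.0160) and without hsfa9-2 replicate 2 (0.21, adjusted p = 0.0468).

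SnRK2 kinases were counted by KEGG term, since the word list held only 1 tested locus (SAPK1-like Medtr5g064540). They had 2 rises and 4 falls among 10 tested loci in hsfa9-2 (60%, against 62.3% of all tested loci). In hsfa9-1 they had 3 rises and 4 falls (70%, against 59.5%). The SNF1-related kinase Medtr1g034030 fell to 48.2 ± 9.64 FPKM in hsfa9-2 and 49.8 ± 3.13 in hsfa9-1, against 214 ± 7.62 in R108 (−2.14 and −2.08). SAPK1-like Medtr5g064540 fell to 7.68 ± 2.09 and 8.60 ± 1.40 FPKM, against 36.9 ± 2.84 in R108 (−2.15 and −1.99). The kinase Medtr2g006330 rose to 70.1 ± 5.03 FPKM in hsfa9-2 and 59.6 ± 6.61 in hsfa9-1, against 38.4 ± 3.65 in R108 (0.85 and 0.62). Medtr8g079560 had 51.5 ± 1.68 FPKM in hsfa9-2, 51.7 ± 5.42 in hsfa9-1 and 49.7 ± 0.303 in R108 and was not called. Over the 16 loci of the term, FPKM summed to 263 ± 7.86 in hsfa9-2, 256 ± 12.5 in hsfa9-1 and 413 ± 11.6 in R108. Medtr1g034030 alone made up that difference: without it the other 15 loci, a sum added after the values were seen, gave 215 ± 7.85, 206 ± 13.0 and 199 ± 7.19 FPKM in hsfa9-2, hsfa9-1 and R108.

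Factors that bind the abscisic acid response element, by KEGG term, had 1 rise and 5 falls among 7 tested loci in hsfa9-2. In hsfa9-1 they had 1 rise and 4 falls. The called shares were 85.7% and 71.4%, against 62.3% and 59.5% of all tested loci, a difference that was not tested. The bZIP factor Medtr6g026800 fell to 6.13 ± 0.577 FPKM in hsfa9-2 and 6.90 ± 0.455 in hsfa9-1, against 22.4 ± 0.471 in R108 (−1.72 and −1.57). Its counterpart Medtr1g098590 rose to 65.8 ± 6.40 and 57.4 ± 1.82 FPKM, against 25.5 ± 2.35 in R108 (1.33 and 1.14). The most abundant by its mean over all 9 libraries, Medtr7g104480, had 59.1 ± 1.61, 62.2 ± 1.39 and 66.9 ± 0.217 FPKM and fell in hsfa9-2 (−0.18, adjusted p = 0.0142), a call lost after centring (0.487) and without the 100 most abundant loci (0.0994). Of 4 tested loci described by ABI or ABF names, 3 fell in hsfa9-2 and 2 in hsfa9-1, and none rose. The ABF2-interacting Medtr5g005940 fell to 75.3 ± 7.60 FPKM in hsfa9-2 and 83.8 ± 8.30 in hsfa9-1, against 112 ± 11.8 in R108. The ABI3-interacting Medtr8g010170 had 224 ± 5.96 FPKM in hsfa9-2, 238 ± 11.1 in hsfa9-1 and 260.0 ± 3.83 in R108 and fell in hsfa9-2 (−0.21, adjusted p = 0.00717), a call lost after centring (0.272). Medtr1g104870 had 133 ± 5.20 FPKM in hsfa9-2, 138 ± 5.71 in hsfa9-1 and 127 ± 5.78 in R108 and was not called, although it was after centring, as higher (limma adjusted p = 0.0156 and 0.0202).

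Of 20 tested loci described as induced by or responsive to abscisic acid (38 in all), 11 rose, 6 fell and 3 were not called in hsfa9-2, and 10 rose, 4 fell and 6 were not called in hsfa9-1. Of all tested loci, 25.8% were called higher and 36.5% lower in hsfa9-2, and 27.6% and 31.9% in hsfa9-1, and the difference of the list from these shares was not tested. The plasma membrane protein Medtr1g094035 rose to 3046 ± 559 FPKM in hsfa9-2 and 2259 ± 81.9 in hsfa9-1, against 894 ± 131 in R108 (1.76 and 1.35, adjusted p = 1.57e-06 and 1.28e-05). The GRAM domain locus Medtr7g083570 fell to 104 ± 5.85 and 111 ± 4.91 FPKM, against 176 ± 15.2 in R108 (−0.75 and −0.66). HVA22 family locus Medtr5g019720 had 109.7 ± 6.43, 115 ± 4.17 and 111 ± 9.77 FPKM and was not called.

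On the log2(FPKM + 1) scale, other loci followed the 4 closely over the 9 libraries. Likeness was measured as the root mean square difference between log2(FPKM + 1) profiles, each centred on its own mean, among 15067 described tested loci. Since all these profiles part the mutants from R108, the closest ones mostly share that step, and the libraries are the same for every profile. Adding 1 FPKM also narrows gaps at low levels, so ratios of FPKM can differ more than this measure shows. At Medtr6g011310, nearest to AFP1, the R108 mean was 44.3 and 142 times the hsfa9-2 and hsfa9-1 means, against 15.8 and 21.4 at AFP1. Those ratios of Medtr6g011310 rest on low mutant levels, 0.75, 0.21 and 0.19 FPKM in hsfa9-2 and 0.1 to 0.15 FPKM in hsfa9-1. In hsfa9-2 the highest is replicate 1, the library that stood apart. The dioxygenase was nearest to the Kunitz type trypsin inhibitor Medtr2g073010 (difference 0.12; 134, 99.6 and 24.2 FPKM on average in hsfa9-2, hsfa9-1 and R108), the B-box zinc finger protein Medtr3g082630 (0.12) and the cysteine-rich secretory protein Medtr8g078770 (0.14). For the epoxidase the nearest were the CCCH zinc finger protein Medtr5g008900 (0.08), the RGA4-like resistance protein Medtr3g086070 (0.09) and the receptor-like kinase Medtr2g005810 (0.09). The receptor was nearest to the cytochrome P450 Medtr2g019640 (0.08; 33.8, 26.5 and 3.50 FPKM), homogentisate 1,2-dioxygenase Medtr8g463280 (0.09) and subtilisin inhibitor 1 Medtr3g020970 (0.09). AFP1 was nearest to the plasma membrane H+-ATPase Medtr6g011310 (0.14; 0.383, 0.12 and 17.0 FPKM), the Rossmann-fold protein Medtr4g021815 (0.19) and the TIM14 translocase subunit Medtr1g066810 (0.19).

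Genes near the 4 loci in the RefSeq assembly MtrunA17r5.0 of the line A17, matched through protein accessions, were read in the same way. Of the nearest matched pair on each side of each locus, 16 genes in all, 10 were tested. Their log2 changes ran from −0.74 to 0.85 in hsfa9-2 and from −0.81 to 0.80 in hsfa9-1, each smaller in size than that of the locus they lie near. The 4 loci were chosen for their differences from R108, which favours that order, so nothing is read from it. The tested neighbours lay 1 to 6 genes away. The only tested one near the receptor, the sorting nexin Medtr5g083370, 5 genes away, fell (−0.74 in hsfa9-2 and −0.81 in hsfa9-1) while the receptor was higher.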

How the data were processed

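RNA of mature seeds was sequenced as reads of 50 bp on a BGISEQ-500, per the labels' protocols. The authors deposited 1 table of FPKM for 42631 transcript models. HISAT, HISAT2, Bowtie2 and RSEM appear in the submitters' processing notes, and the genome build is not given in the sources used here. FPKM was summed per locus (Python 3.11.15, pandas 2.3.3), and log2(FPKM + 1) of the 17508 loci that reached 1 FPKM in 3 or more libraries was fitted over all 9 libraries with limma 3.58.1 (R 4.3.3), with trend and robust moderation, and p-values adjusted by Benjamini-Hochberg over all tested loci (threshold 0.05). No counts were available, so exact zeros can be failed estimates. The test was tested on simulated data. The 4 loci and the word lists were chosen with earlier results of these data known. From each list the 3 most abundant loci were named, and all tested loci of the synthesis, receptor and ninja lists. The 12 KEGG terms, from each of which the 3 most abundant were named, and their lists were added after the values were seen, and 1 identical pair in them (Medtr3g079520 and Medtr3g479600) counts as 2 loci. Replicates are separate libraries of 50 seeds each, and their numbers do not pair the samples.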

Additional observations from a re-analysis of the deposited data

How the results depend on the processing

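The 4 loci kept their direction against R108 under every alternative run. They were chosen on these contrasts, and their mutant and R108 libraries did not overlap. That direction was therefore largely fixed beforehand, and nothing is read from its holding. With a pseudocount of 0.1 in place of 1, log2 changes in hsfa9-2 and hsfa9-1 against R108 were 2.98 and 2.57 for the dioxygenase, −1.81 and −1.68 for the epoxidase, 3.17 and 2.82 for the receptor, and −3.96 and −4.39 for AFP1. With the model most abundant over all 9 libraries alone (model 2, which is not the most abundant in hsfa9-2), the epoxidase gave −1.63 and −1.46. Leaving out each library in turn gave 2.34 to 2.56 and 1.96 to 2.18 for the dioxygenase, −1.36 to −1.20 and −1.29 to −1.12 for the epoxidase, 2.91 to 3.09 and 2.56 to 2.72 for the receptor, and −3.81 to −3.59 and −4.13 to −3.89 for AFP1. None of the 4 was called between hsfa9-2 and hsfa9-1 under any alternative, with limma adjusted p-values from 0.192 to 0.486 for the dioxygenase, 0.109 to 0.446 for the receptor, 0.311 to 0.596 for AFP1 and 0.736 to 0.994 for the epoxidase. Loci called in that contrast numbered 196, 126 without the filter, and 94 to 324 when a library was left out, the highest without hsfa9-2 replicate 1. Of the word lists 0 to 1 locus was called there, and of the KEGG terms 0 to 2. Centring gave 5634 higher and 5070 lower loci in hsfa9-2 against R108, beside 4511 and 6391, and 114 and 78 in hsfa9-2 against hsfa9-1, beside 86 and 110. The replicate numbers did not pair the samples (correlations of deviations −0.125 to 0.0960). With the replicate block, 10716, 10213 and 145 loci were called in the 3 contrasts, and no call of the 4 changed. Signs turned at loci not called. After centring, hsfa9-2 values were 0.079 for Medtr3g491830, 0.066 for Medtr4g030930, 0.0081 for Medtr4g125810, 0.081 for Medtr4g485640 and 0.11 for Medtr5g019720. Without the 100 most abundant loci they were 0.015 for Medtr3g491830, 0.017 for Medtr4g485640 and 0.047 for Medtr5g019720. Leaving out a library gave, in hsfa9-2, −0.094 to 0.011 for Medtr3g491830, −0.035 to 0.49 for Medtr4g014460, −0.14 to 0.014 for Medtr4g030930 and −0.088 to 0.030 for Medtr5g019720, and in hsfa9-1, −0.024 to 0.094 for Medtr5g019720 and −0.029 to 0.11 for Medtr8g079560. The cause was not tested. With no numbers of mapped fragments per library, the precision of the epoxidase in mutants and of the dioxygenase in R108, both near 1 FPKM, rests on the spread of 3 libraries.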
